A study of Homo sapiens with 4 samples.

Results

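The Polo-like kinases are a small family of serine/threonine kinases that share an N-terminal catalytic domain and C-terminal polo boxes. Members were the probe sets whose platform annotation gives exactly 1 gene symbol and that symbol is PLK1, PLK2, PLK3 or PLK4. The rule found 4 probe sets, 1 for each gene, among 18417 genes represented on the array, and 0 probe sets carried a member's symbol beside another gene's. Expression was measured in H1299, a p53-null cell line from a human non-small cell lung carcinoma, made to carry wild-type mouse p53 under a tet-on promoter in a stable line. The uninduced group was this line before induction (2 arrays), and the induced group was the same line after 24 hours in doxycycline at 0.5 µg/mL (2 arrays). Both groups carry the construct and were grown in DMEM with 10% tet-free serum. There was no group with doxycycline and no construct, and the labels do not say whether the line is 1 clone. The labels call the 2 arrays of a group technical replicates, so the p-values measure only the spread between arrays, which may be technical, and precision is limited by how few arrays there are.

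PLK1 drives entry into and passage through mitosis: it is switched on by Aurora A with the cofactor Bora, and its polo boxes dock it on centrosomes, kinetochores and the midbody. PLK4 is the kinase that starts centriole duplication, and its polo boxes bind centriole scaffold proteins. PLK2 and PLK3 were first described as early response genes of growth factor stimulation and are known as stress-responsive kinases, PLK2 being a known p53 target. The PLK1 and PLK4 genes are known to be repressed by the DREAM complex when p53 and p21 halt the cycle.

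The family split by role after induction. PLK1 and PLK4 fell, PLK2 and PLK3 rose, and the induced and uninduced arrays did not overlap for any of the 4 genes. Each passed limma's moderated test (p adjusted over all genes by Benjamini-Hochberg, threshold 0.05), as did 45.1% of the 18417 genes, 20.6% higher and 24.6% lower. The excess of lower calls turned with the scaling: 3789 genes were higher and 4522 lower in the values as given, against 4277 and 4237 with a further quantile normalization and 4372 and 4182 with median centring. Each also changed at least 2-fold, as did 13.2% of genes, 6.48% higher and 6.77% lower. Groups that do not overlap are common here, at 66.8% of genes. By size of change, PLK3 had the 12th largest rise and PLK2 the 154th, and PLK4 had the 31st largest fall and PLK1 the 87th. The difference in log2 fold change between a stress-induced and a mitotic or centriolar member was smallest in size for PLK1 minus PLK2, at -5.16, and largest for PLK3 minus PLK4, at 7.49. As a check of the labels, CDKN1A (p21) and MDM2, the p53 ubiquitin ligase, had log2 fold changes of 3.43 and 2.885.

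**Figure D1:**
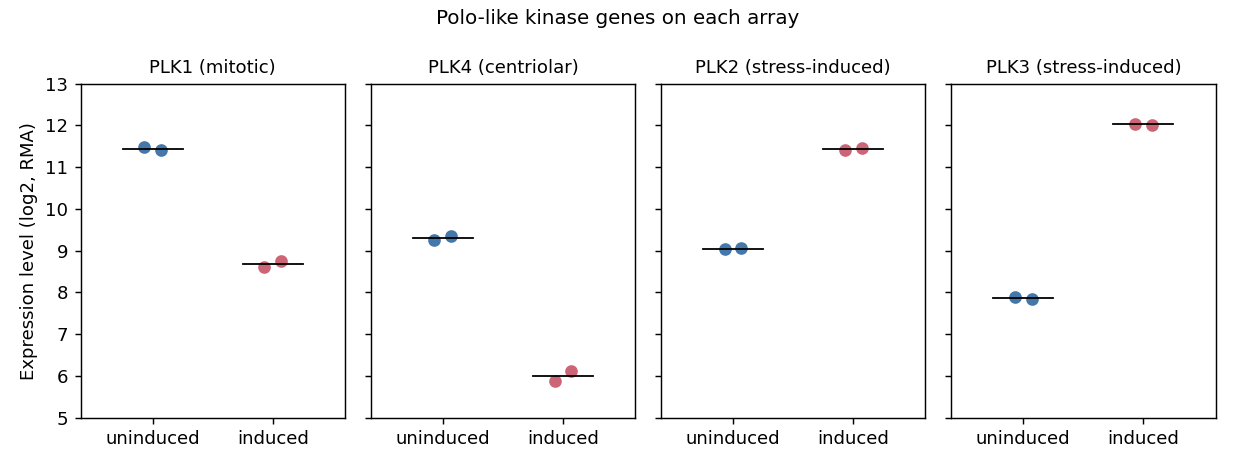
Level of each Polo-like kinase gene (log2, RMA, vertical axis) on the 2 uninduced arrays (blue) and 2 induced arrays (red); points are arrays and lines are group means. PLK1 and PLK4 sit lower on the induced arrays and PLK2 and PLK3 higher, with arrays of a group within 0.24 log2 units of each other.

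PLK1 (probe set 7994109) stood at 11.48 and 11.41 log2 units on the uninduced arrays and at 8.61 and 8.76 on the induced arrays. Both induced arrays were low, and the difference was -2.65 between the closest pair of arrays from the 2 groups. The mean went from 11.445 ± 0.049 to 8.685 ± 0.11 (SD, n = 2 arrays each), a log2 fold change of -2.76 (SE 0.092, 95% interval -2.98 to -2.54) and a level 6.77-fold lower, with adjusted p = 9.2e-07 in limma's test.

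PLK4 (probe set 8097356) stood at 9.26 and 9.36 log2 units uninduced and at 5.87 and 6.11 induced, so again both induced arrays were low and the groups lay far apart. Its mean went from 9.31 ± 0.071 to 5.99 ± 0.17 (SD, n = 2 arrays each), a log2 fold change of -3.32 (SE 0.11, 95% interval -3.57 to -3.07) and a level 9.99-fold lower, with adjusted p = 8.6e-07 in limma's test. The induced level lay inside the range of 14 markers of blood, stromal and differentiated lung cells, which were at 4.11 to 8.53 (median 6.45) on the induced arrays, the highest being SCGB1A1, which itself was called higher. No detection call was used here, so no lower limit of measurement was set for PLK4, and how far the size of its fall depends on the array's background was not tested. The fall of PLK4 was larger than that of PLK1 by 0.56 on the log2 scale, and the difference was not tested. Their 95% intervals, which cover only the spread between arrays, did not overlap.

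The promoter windows of these genes, from RefSeq on GRCh38.p14, reach from 250 bases before to 50 after each annotated start. They were searched on both strands for the cell cycle genes homology region (CHR: TTTGAA or TTCGAA), the site through which DREAM and its activating partners are known to contact such promoters. The PLK1 window and the first of 3 PLK4 windows each held a single CHR, shown here with the match in capitals. The PLK1 stretch is chr16:23678848-23678877 and the PLK4 stretch chr4:127880913-127880942, both on the + strand, and the PLK4 match reads TTTGAA on the opposite strand.
PLK1: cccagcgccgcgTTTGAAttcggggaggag
PLK4: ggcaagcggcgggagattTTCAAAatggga
The PLK1 match lies 29 to 24 bases before the annotated start and the PLK4 match 39 to 44 bases after it. Neither the PLK2 nor the PLK3 window held these letters. A CHR is no rare match, since 16.4% of all 35116 windows of this length held one. By gene, 17.4% of 14237 measured genes with a window held a CHR, against 25.9% of 1017 genes called at least 2-fold lower and 16.6% of 960 called at least 2-fold higher. These shares are descriptions, PLK1 and PLK4 are among the lower genes, and genes with several windows have more chances of a match. The PLK1 window also held a CCAAT box (CCAAT) 73 to 69 bases before the start, a motif in 34.6% of windows, and the third PLK4 window held another. The E2F core (TTTCCCGC or its reverse complement GCGGGAAA, or TTTGGCGC) was in 2.27% of windows and in 0 windows of the 4 genes.

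PLK2 (probe set 8112202) stood at 9.03 and 9.06 log2 units uninduced and at 11.42 and 11.47 induced. Both induced arrays were high, and no pair of arrays from the 2 groups differed by less than 2.36. The mean went from 9.045 ± 0.021 to 11.445 ± 0.035 (SD, n = 2 arrays each), a log2 fold change of 2.40 (SE 0.082, 95% interval 2.21 to 2.59) and a 5.28-fold rise, with adjusted p = 1.0e-06 in limma's test.

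PLK3 (probe set 7901054) stood at 7.88 and 7.83 log2 units uninduced and at 12.04 and 12.01 induced. It had the widest gap of the family, and pairs of arrays from the 2 groups differed by 4.13 to 4.21. The mean went from 7.855 ± 0.035 to 12.025 ± 0.021 (SD, n = 2 arrays each), a log2 fold change of 4.17 (SE 0.082, 95% interval 3.98 to 4.36) and an 18.0-fold rise, with adjusted p = 4.7e-07 in limma's test. The log2 fold change of PLK2 was lower than that of PLK3 by 1.77, and this difference was not tested either. Their 95% intervals, again of the spread between arrays only, did not overlap. The uninduced PLK3 level of 7.855 also lay inside the range of the 14 markers of other cells, near its top (3.98 to 7.955 on the uninduced arrays, median 6.32), and how far the size of its rise depends on the array's background was not tested. For scale, the median SE over all genes was 0.092 and the median log2 fold change of all genes moved by 0.035 or 0.05 when the arrays were scaled in other ways.

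The 250 bases before the start of PLK2 (chr5:58460087-58460336, - strand) and PLK3 (chr1:44800127-44800376, + strand) are shown because these are the members that rose. Capitals mark a match to the consensus of a single repeat of the p53 response element, of which a full element holds a pair.
PLK2: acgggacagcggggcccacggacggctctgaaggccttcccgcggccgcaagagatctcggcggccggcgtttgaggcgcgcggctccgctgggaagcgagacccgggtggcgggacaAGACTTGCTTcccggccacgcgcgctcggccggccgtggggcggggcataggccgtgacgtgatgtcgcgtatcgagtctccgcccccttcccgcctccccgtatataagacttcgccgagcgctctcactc
PLK3: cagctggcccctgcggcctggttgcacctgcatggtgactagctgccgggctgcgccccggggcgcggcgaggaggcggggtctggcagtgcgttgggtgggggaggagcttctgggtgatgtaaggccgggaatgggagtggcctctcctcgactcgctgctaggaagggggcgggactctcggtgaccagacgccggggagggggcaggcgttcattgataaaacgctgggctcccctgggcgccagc
The PLK2 window held a single such match, 132 to 123 bases before the start, and the windows of PLK3, PLK1 and PLK4 held none. That consensus was in 6.63% of all windows. By gene, it was in 8.19% of measured genes with a window, in 13.1% of genes called at least 2-fold higher and in 6.10% of genes called at least 2-fold lower. These shares too are descriptions, PLK2 is among the higher genes, and genes with several windows have more chances of a match. The absence of these letters from the PLK3 window says nothing of sites outside it or of a site that departs from the consensus.

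**Figure D2:**
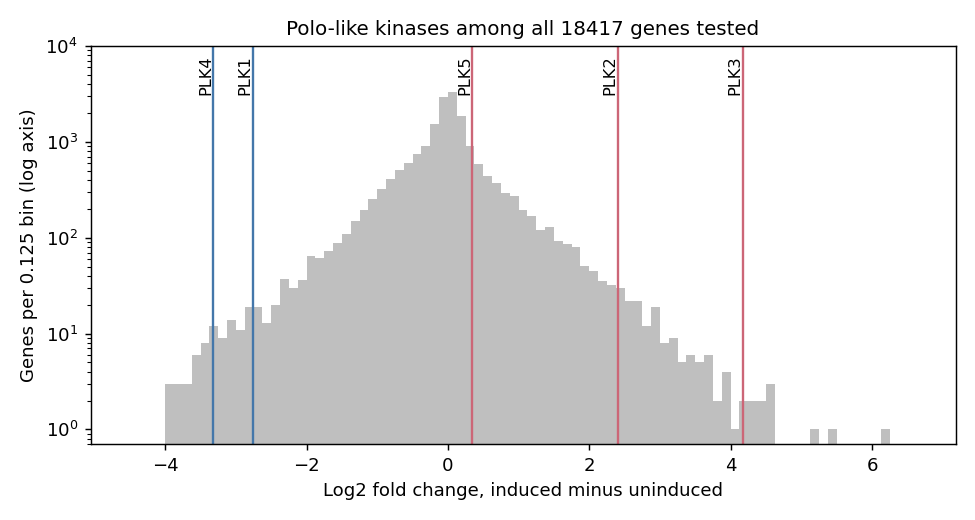
Log2 fold change, induced minus uninduced (horizontal axis), of all 18417 genes as a histogram with a log count axis; vertical lines mark the Polo-like kinases and their relative PLK5. PLK4 at -3.32 and PLK1 at -2.76 lie in the lower tail, PLK2 at 2.40 and PLK3 at 4.17 in the upper tail, and PLK5 at 0.34 near the bulk.

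PLK5, a divergent relative that is no member by the rule and whose human protein is known to lack a complete kinase domain, stood at 7.23 and 7.20 uninduced and at 7.59 and 7.52 induced. Its log2 fold change was 0.34 (SE 0.083, adjusted p = 0.0117 in limma's test), and the call ended without uninduced array 1 (adjusted p = 0.0975) or uninduced array 2 (0.116).

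The genes whose profile over the 4 arrays came closest to each member's were found by the Euclidean distance between deviations from the gene's own mean, in log2 units. With 2 groups of 2 arrays this likeness is mostly that of the fold change, so it is a description. The nearest 5 to PLK1 lay within 0.094 and were TMPO, a nuclear lamina-associated gene, the histone chaperone gene ASF1B, the mitotic cyclin gene CCNB1, the protease gene CTSC and CDC20, the activator of the anaphase-promoting complex. The nearest 5 to PLK4 lay within 0.084 and were the condensin gene NCAPG, the kinetochore genes CENPF and SPC25, CIP2A, an inhibitor of a phosphatase, and the mitotic kinase gene PBK. CCNB1 stood at 10.85 and 10.84 uninduced and 8.10 and 8.21 induced, and NCAPG at 11 and 11.05 uninduced and 7.58 and 7.85 induced. That both were low on the induced arrays follows from how they were picked.

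Around PLK2 the nearest 5 lay within 0.064: MON2, the iron reductase gene CYBRD1, CYFIP2, the lipid transporter gene ABCA2 and the protocadherin gene PCDHB12. PLK3 had more distant nearest genes, up to 0.23, since few genes rose as far. They were the lysosomal gene LAMP3, the guidance ligand gene SLIT2, FAM13C, the axonemal dynein gene DNAI3 and the noncoding RNA gene LINC00324. LAMP3 stood at 7.24 and 7.21 uninduced and at 11.49 and 11.47 induced, a log2 fold change of 4.255 (SE 0.081).

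Genes that switch PLK1 on, dock it or are its known substrates fell with it. Of 28 listed and measured, 25 fell and 3 rose, against 24.6% of all genes called lower and 20.6% higher. The list's median change was -1.93 log2 units, beside 0 over all genes tested. At least 2-fold changes were called for 19 that fell and 1 that rose, against 6.77% and 6.48% of all genes. AURKA, the activating kinase, stood at 10.86 and 10.89 uninduced and 8.11 and 8.30 induced, and fell by 2.67 (SE 0.095). BORA, its cofactor, fell by 1.975 (SE 0.12) from levels of 8.43 and 8.56 to 6.37 and 6.67. Both activators were thus low on both induced arrays, without overlap, and 66.8% of all genes had groups without overlap. CENPU, a kinetochore dock of PLK1, fell by 1.89 and FBXO5, an inhibitor of the anaphase-promoting complex that PLK1 marks for destruction, fell by 2.84. CDC25C, the phosphatase that activates CDK1, fell by 2.485. The largest falls of the list were those of SGO1, the protector of centromeric cohesion (-3.535), the checkpoint mediator CLSPN (-3.51) and the midzone protein PRC1 (-3.44). CLSPN had 2 probe sets, and with their mean its log2 fold change was -3.12. The induced means of SGO1 (5.805), CLSPN (5.88) and PRC1 (7.24) lay inside the range of the 14 markers of other cells. How far the size of these falls depends on the array's background was not tested. WEE1, the kinase that holds CDK1 inactive and is a target of PLK1, went the other way, from 9.61 and 9.74 to 10.74 and 10.88 (log2 fold change 1.135, SE 0.095); it was singled out after its value was seen. Counts moved with the arrays used: 1 of the list rose without uninduced array 1, uninduced array 2 or induced array 2 and 3 rose without induced array 1, while 21 to 25 fell whichever array was left out.

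Centriole assembly genes fell more often than they rose. Of 24 measured, 14 fell, 6 rose and 4 were not called, with a median log2 fold change of -0.69. Among all genes 24.6% were called lower and 20.6% higher, so the share that rose was near that of all genes. STIL and SASS6, the partners with which PLK4 builds the cartwheel of a new centriole, had log2 fold changes of -3.15 (SE 0.10) and -3.075 (SE 0.089), beside -3.32 for PLK4. STIL went from 10.14 and 10.21 to 6.91 and 7.14, and SASS6 from 9.64 and 9.76 to 6.59 and 6.66. Neither overlapped between groups, as was so for 66.8% of all genes. CEP135, a cartwheel-anchoring protein, fell by 2.525. The induced means of CEP135 (6.065), SASS6 (6.625) and STIL (7.025) lay inside the range of the 14 markers of other cells. How far the size of these falls depends on the array's background was not tested. The scaffolds that recruit PLK4 to the centriole fell unequally, CEP152 by a log2 fold change of -2.085 (SE 0.12) and CEP192 by one of -0.725 (SE 0.095). CEP120, a centriole elongation protein, rose by 1.95 (SE 0.087), from 8.87 and 8.85 to 10.75 and 10.87, and was singled out after its value was seen. For the F-box proteins that target PLK4 for degradation, the log2 fold change was 0.55 (SE 0.083) in the case of FBXW11 and -0.355 (SE 0.089) in that of BTRC. The BTRC call ended without uninduced array 1 (adjusted p = 0.14), uninduced array 2 (0.121) or induced array 1 (0.0545). The number that rose was 2 without uninduced array 1 or induced array 2, 3 without induced array 1 and 4 without uninduced array 2, against 11 to 14 that fell.

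**Figure D3:**
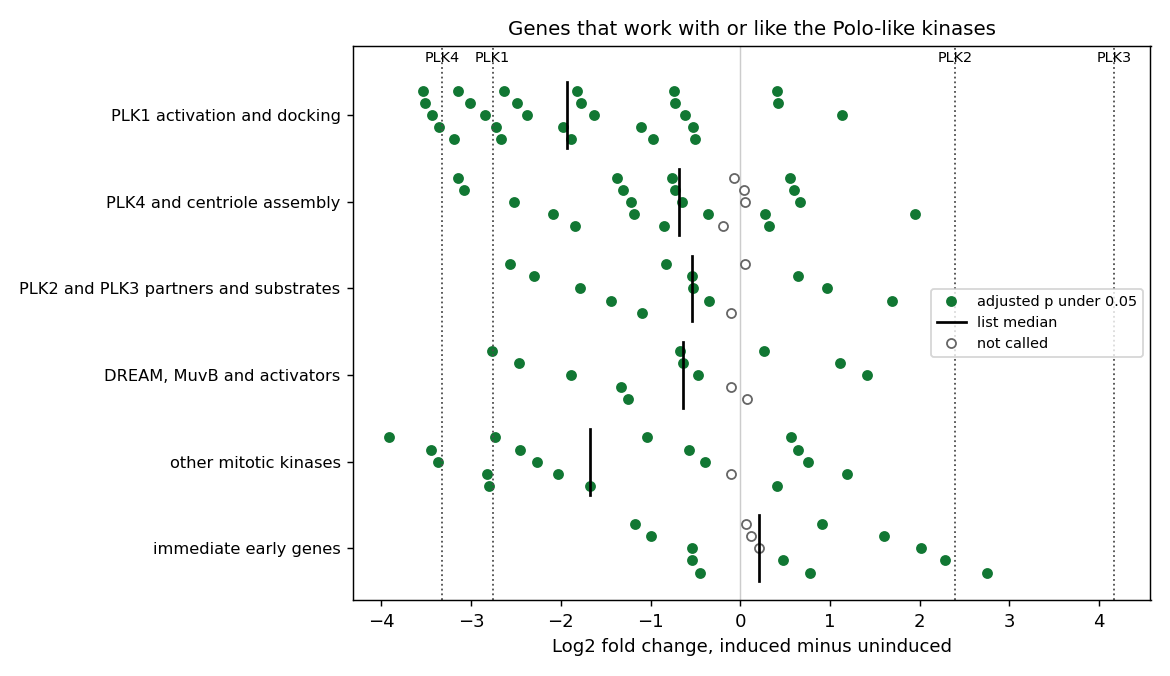
Log2 fold change, induced minus uninduced (horizontal axis), of every measured gene of 6 lists; filled points were called at an adjusted p under 0.05, open points were not, thick bars are list medians and dotted lines mark the 4 Polo-like kinases (heights within a list only separate points). PLK1 partners lie mostly to the left with a median of -1.93, whereas immediate early genes spread to both sides with a median of 0.21.

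Partners and substrates of PLK2 and PLK3 did not rise with them as a group. Of 14 measured, 9 fell, 3 rose and 2 were not called, with a median of -0.53. The share that rose was near the 20.6% of all genes called higher, while 24.6% of all genes were called lower. TOP2A, the mitotic topoisomerase, fell by 2.565, the kinase gene VRK1 fell by 2.30 and CDC25A, a phosphatase of the S-phase kinases, fell by 1.79. SIPA1L1, the synaptic Rap regulator that PLK2 is known to mark for degradation, fell by 1.435 (SE 0.090), from 10.00 and 10.13 to 8.59 and 8.67. CIB1, a calcium-binding protein that binds PLK2 and PLK3, rose by 0.965 (SE 0.091), from 9.14 and 9.08 to 10.15 and 10.00. FBXW7, an F-box protein gene, had the largest rise at 1.695 (SE 0.11). The number that fell was 6 without uninduced array 2 and 7 or 8 without each other array, and 3 rose in each case.

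Immediate early genes, the class in which PLK2 and PLK3 were first placed, moved both ways. Of 15 measured, 7 rose, 5 fell and 3 were not called, with a median of 0.21, against 20.6% of all genes called higher and 24.6% lower. EGR1, a zinc finger transcription factor, rose by 2.755 (SE 0.086), from 8.42 and 8.46 to 11.14 and 11.25, a rise between those of PLK2 and PLK3. The orphan receptor gene NR4A1 rose by 2.285 and ZFP36, which destabilises messenger RNAs, by 2.015. Both of the latter were below PLK2's rise.

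Most regulators through which PLK1 and PLK4 transcription is known to be controlled passed the test, in both directions. Of 13 genes of the DREAM and MuvB complexes and their activators, 8 fell, 3 rose and 2 (RBBP4 and LIN54) were not called, with a median of -0.64. Over all genes 45.1% were called, 24.6% lower and 20.6% higher, so the share that rose was near that of all genes. MYBL2 and FOXM1, the activators that join MuvB in S phase and G2, fell by 2.77 (SE 0.11) and 2.47 (SE 0.089). MYBL2 went from 10.23 and 10.25 to 7.34 and 7.60, and FOXM1 from 11.22 and 11.08 to 8.69 and 8.67. The p107 gene RBL1 fell by 1.89, whereas RBL2, which encodes the p130 pocket protein of DREAM, rose by 1.415 (SE 0.098), from 8.42 and 8.62 to 9.90 and 9.97 (named after its value was seen). The number that rose was 2 when any array was left out.

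Other kinases of mitosis and the checkpoint fell in 13 of 19, rose in 5 and were not called in 1, with a median of -1.67. Among all genes 24.6% were called lower and 20.6% higher. TTK, the spindle checkpoint kinase, had a log2 fold change of -3.91, CDK1 one of -3.445 and PBK one of -3.37. PBK lay within an SE of PLK4 (-3.32), which follows from its place among the 5 genes picked as nearest to PLK4. On the induced arrays TTK and PBK each had a mean of 5.945 and CDK1 one of 6.825. These lay inside the range of the 14 markers of other cells (4.11 to 8.53, median 6.45). How far the size of these falls depends on the array's background was not tested.

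Genes next to the kinases did not follow them for the most part. For each member the nearest 3 measured genes on either side in RefSeq order were taken, 24 in all, of which 7 were called lower, 6 higher and 11 not. These counts are near the background of 45.1% of all genes called, 24.6% lower and 20.6% higher. Of the 13 called, DCTN5 beside PLK1, HSPA4L beside PLK4 and DYNLT4 beside PLK3 kept the call whichever array was left out. The other 10 lost it without at least 1 array and had absolute log2 fold changes of 0.295 to 0.535. DCTN5, a dynactin subunit gene, rose by 0.965 (SE 0.081) and HSPA4L, a heat shock protein gene, by 1.01 (SE 0.083), each opposite to the kinase beside it. DYNLT4, a dynein light chain gene, stood at 6.77 and 6.60 uninduced and at 8.57 and 8.44 induced, a log2 fold change of 1.82 (SE 0.098) in the direction of PLK3. In the RefSeq annotation the DYNLT4 gene overlaps PLK3 on the opposite strand, so the value of either is uncertain as far as probes may lie in shared sequence, which was not tested. The PLK1 gene overlaps ERN2, which was not called (log2 fold change 0.135, SE 0.091), and the PLK4 gene overlaps RNU6-583P, for which no value was used here.

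**Figure D4:**
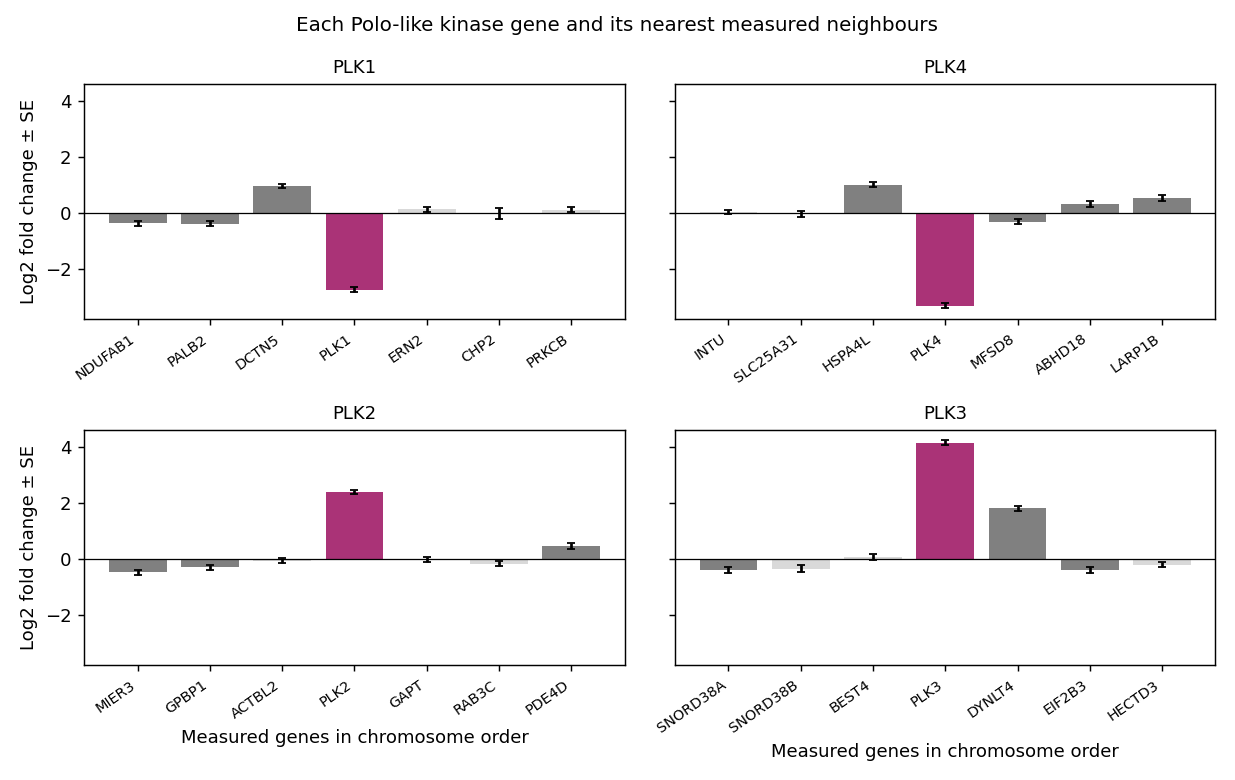
Log2 fold change ± SE (limma, vertical axis) of each Polo-like kinase gene (purple) and of its 3 nearest measured genes on either side in chromosome order; dark grey bars were called at an adjusted p under 0.05 and light grey bars were not. DYNLT4 at 1.82 is the sole neighbour past 1 in the direction of its kinase, and spacing on the axis is by order, not distance.

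The arrays and the line gave these reference values. Arrays of a group correlated over genes at 0.997 and 0.995, against 0.917 to 0.921 between groups (genes are not independent replicates). Of 4 carcinoma markers, the keratin gene KRT18 went from a mean of 11.135 to 11.04 (not called) and KRT8 rose from 9.485 to 10.63. VIM, at 12.72 uninduced and 12.32 induced, had a change of -0.40, a call that ended without uninduced array 1 (adjusted p = 0.065 in limma's test) or uninduced array 2 (0.088). KRT7 stood at 7.915 and 7.615 (adjusted p = 0.0506). Of 14 measured markers of other cells, 3 were called higher and 0 lower, led by SCGB1A1 at 2.03, while the calls of SFTPC and CD3E ended when any array was left out (adjusted p from 0.0632 to 0.195 in limma's test). The other 11 markers were not called, and the median change was 0.09, while 20.6% of all genes were called higher and 24.6% lower. The summed log2 level of the 14 was 86.5 to 87.6 on the uninduced arrays and 89.0 to 91.2 on the induced arrays. SCGB1A1 alone, with its change of 2.03, made up much of that gap. The part of these markers in the results above was not tested. In such bulk samples fewer cells of a kind and less RNA per cell cannot be told apart.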

How the data were processed

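Total RNA from 4 samples was labelled with biotin and hybridised to a whole-transcript Affymetrix array. The deposited values are log2 expression levels that the authors made with Affymetrix Expression Console and RMA, per the submitters' processing notes; versions, settings and build: not given in the sources used here. RMA equalises array distributions, which would hide a change of all transcripts together, and it compresses folds of dim genes. Values ran from 2.26 to 14.3, with array medians of 7.26 to 7.33.

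Of 33297 rows, 19460 had 1 gene symbol, 1754 several and 12083 none; rows with several or none were named nowhere. Symbols were updated through gene IDs in RefSeq (GRCh38.p14), where 19429 rows matched. A gene was represented by its probe set with the highest mean. limma 3.58.1 in R 4.3.3 (lmFit, eBayes, two-sided, residual degrees of freedom 2, total 7.20) was fitted over 18417 genes with Benjamini-Hochberg adjustment, and tested on simulated data. Groups came from sample titles.

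The members, lists and rules were chosen with earlier results of these data known. Genes named were the 4 kinases, PLK5, CDKN1A and MDM2, set partners (AURKA, BORA, CENPU, FBXO5, CDC25C, STIL, SASS6, CEP152, CEP192, BTRC, FBXW11, SIPA1L1, CIB1, FOXM1, MYBL2), the 3 largest changes of each list, the 5 nearest profiles and the 3 neighbours per side; WEE1, CEP120, FBXW7, RBL2, RBBP4, LIN54 and KRT18 were added after their values were seen. A planned comparison of protein sequences was not made, and some planned list genes are not reported here. Alternatives tried were quantile normalization again, median centring, dropping probe sets below the 40th percentile of level, averaging probe sets, every row, a robust prior with an intensity trend, treat at a fold of 1.2, a replicate block and leaving out each array. Promoter windows and figures used Python 3.11.15, pandas 2.3.3 and matplotlib 3.10.9.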

Additional observations from a re-analysis of the deposited data

How the results depend on the processing

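PLK1, PLK2, PLK3 and PLK4 kept direction and call under all 12 alternatives. Log2 fold changes ran from -2.835 to -2.685 for PLK1, 2.375 to 2.45 for PLK2, 4.145 to 4.235 for PLK3 and -3.44 to -3.20 for PLK4, and the largest adjusted p was 0.0109, in limma's test with 1 array left out. The counts called in the 6 lists stayed within 1.5 times. The number of genes called over the whole array was 8311, 5479 with treat against a fold of 1.2, and 4959 to 6904 with each array left out (5043 without uninduced array 1, 4959 without uninduced array 2); those alternatives test against a minimum fold or with fewer arrays. With the replicate block 7820 genes were called, and the 4 kinases kept their calls. The deviations of same-numbered arrays correlated at 0.225 over genes, but with 2 pairs the labels' numbers do not establish a pairing. Of 1080 values of 91 other genes under the alternatives, 999 kept their side of the threshold, 75 lost the call and 6 gained one, and no called gene changed direction. With 2 arrays a group no array could be tested as an outlier, and no detection call was used to set a limit from signal over background.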
